A study of Bos taurus with 32 samples.

Results

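PIPOX and the antioxidant enzymes were followed in bovine endometrium, which had been collected 15 days into the estrous cycle from cows classed as repeat breeder (RB) or non-RB. PIPOX was chosen by its higher signal in RB than in non-RB cows on these same arrays, so its RB against non-RB values are a description without a test. CAT, SOD1, SOD2, GPX1, GPX3, GPX4, PRDX1, PRDX2 and TXN were listed with it for their function. Probes were found by the gene name or description in the array files. They gave 10 probes for 9 of the 10 genes, among 15208 probes with 15077 distinct names on the array. No probe was found for CAT, which was dropped, and PIPOX had 2 probes.

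All cows were non-lactating Japanese Black cows. The 4 RB cows showed estrus and had a uterus and ovaries that felt healthy on palpation, but had not conceived after repeated inseminations. The 4 non-RB cows had conceived, after which the pregnancy was ended with cloprostenol and normal cycles followed, so an induced abortion is part of the non-RB history and cannot be told apart from fertility. From each cow the caruncles (CAR), where the placenta attaches, and the intercaruncular endometrium (ICAR), which carries the glands, were taken from the horn on the side of the corpus luteum (ipsilateral) and from the opposite horn (contralateral). That gave 4 RB and 4 non-RB arrays in each of the 4 compartments, 32 arrays in all. The same replicate number within a group is taken here as the same cow, which the labels do not state.

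PIPOX is a peroxisomal flavoprotein that oxidizes L-pipecolic acid, a breakdown product of lysine, and also sarcosine, and it releases hydrogen peroxide. Superoxide dismutases turn superoxide into hydrogen peroxide, SOD1 mainly in the cytosol and SOD2 in mitochondria. Glutathione peroxidases and peroxiredoxins remove peroxides, and thioredoxin (TXN) keeps the peroxiredoxins reduced. In the endometrium these enzymes work beside progesterone-driven metabolism and secretion in the luteal phase.

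Values are background-subtracted intensities on a log2 scale, set against the 75th percentile of each array, so a value of 0 is that percentile and values below it are negative. They can be compared between arrays for 1 probe but not between probes. The 75th percentile ran from 1165 to 4857 intensity units, 74.3% to 85.8% of probes were well above background by the scanner software, and precision is limited by how few arrays each group holds. The 2 arrays of slide 1 (non-RB replicate 2 of CAR contralateral and non-RB replicate 1 of ICAR contralateral) had uneven signal, with an SD of 1.32 and 0.873 log2 units over 100 copies of a GAPDH probe. Slide 2 carried every array of RB cows 2 and 3, and among the 8 slides, both groups met within a compartment on slides 6 and 8 alone. FOXA2, a transcription factor of the uterine glands, was lower in CAR than in ICAR by 1.69 ± 0.38 (SE; limma over 32 arrays, adjusted p = 0.0361), a call that is lost without slide 1 or without any 1 of 6 of the 8 cows, where 0 probes passed, and all 6 epithelial marker probes were well above background on every array. In whole tissue fewer cells of a type and less RNA per cell cannot be told apart.

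The 2 PIPOX probes are shown because every PIPOX value rests on them. Each is a 60-base oligonucleotide, and bases 1 to 30 are printed 5′ to 3′ as the array files give them.

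ABR8834: gcattcagatgaaaccgaagcaggagcatc

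ABR9851: gtttctgcatgagggcactgttggcatttg

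The probes share no stretch longer than 5 bases. The file names ABR9851 as PIPOX and lists ABR8834 only as a transcribed locus, and the study's own tables name ABR8834 as PIPOX. Over the 32 arrays the 2 probes had a Pearson r of 0.95 and a Spearman rho of 0.91, and r was 0.94 after the mean of each group and compartment was removed. Of 12384 probes ranked by r with ABR8834, ABR9851 was the first. Both probes read the same labeled RNA on the same array, so these are a description of 1 set of samples and not separate evidence of a difference between cows.

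**Figure D1:**
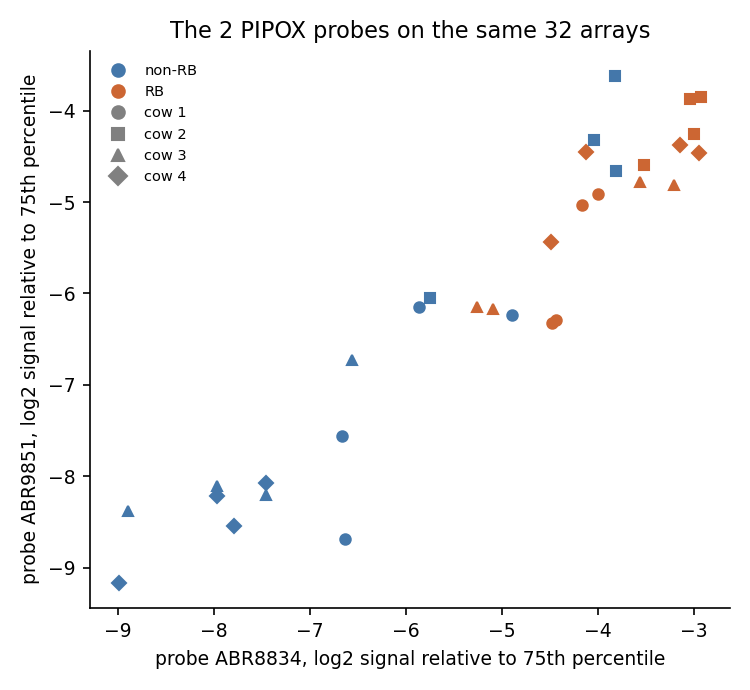
Log2 signal of PIPOX probe ABR9851 (vertical axis) against probe ABR8834 (horizontal axis), both against the array's 75th percentile, for 32 arrays. Color gives the group and shape the cow; the points lie near 1 line (r = 0.95), with RB arrays and 3 arrays of non-RB cow 2 toward its upper end. Non-RB cow 1 in ICAR ipsilateral (-4.90 on ABR8834, -6.24 on ABR9851) also lies above the lowest RB arrays. On ABR9851 alone, non-RB cows 1 and 2 in ICAR contralateral do so as well.

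PIPOX signal was higher on average in the RB than in the non-RB cows in every compartment, and non-RB cow 2 lay within the RB range in 3 of the 4 compartments on ABR8834 and within or above it in all 4 on ABR9851. Probe ABR8834 was well above background on 16 of 16 RB arrays and 11 of 16 non-RB arrays, with a median intensity of 248 and 24 units. Probe ABR9851 was well above background on 16 of 16 RB and 8 of 16 non-RB arrays, with medians of 121 and 16.5 units. Neither probe was saturated on any array. The remaining 5 and 8 non-RB arrays lay close to the background, where small errors in intensity are large on the log2 scale.

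In CAR of the ipsilateral horn, ABR8834 read -4.17, -2.93, -5.09 and -4.13 in RB cows 1 to 4. It read -6.64, -4.04, -6.56 and -7.97 in non-RB cows 1 to 4. Non-RB cow 2 lay among the RB cows and the other 3 lay below all of them. Means were -4.08 ± 0.89 and -6.30 ± 1.64 (SD, n = 4), a difference of 2.22 or 4.66-fold.

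In ICAR of the ipsilateral horn, the same probe read -4.48, -3.04, -3.57 and -3.15 in RB cows and -4.90, -3.82, -7.46 and -8.98 in non-RB cows. Again only non-RB cow 2 overlapped the RB cows, and non-RB cow 1 was just below their lowest value. Means were -3.56 ± 0.65 and -6.29 ± 2.36 (SD, n = 4), a difference of 2.73 or 6.62-fold.

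In CAR of the contralateral horn, RB cows read -4.0, -3.53, -3.21 and -4.49 and non-RB cows -6.66, -3.82, -8.89 and -7.79. The overlap was through non-RB cow 2 alone, on an array of slide 1. Means were -3.81 ± 0.56 and -6.79 ± 2.18 (SD, n = 4), a difference of 2.99 or 7.92-fold.

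In ICAR of the contralateral horn, RB cows read -4.44, -3.00, -5.26 and -2.95 and non-RB cows -5.86, -5.75, -7.96 and -7.46. Here the 2 groups did not overlap. Means were -3.91 ± 1.13 and -6.76 ± 1.12 (SD, n = 4), a difference of 2.85 or 7.19-fold.

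Because the choice of PIPOX used these contrasts, only the background is given beside them. Over all probes tested, the RB and non-RB arrays did not overlap in either direction for 1.97% in CAR ipsilateral, 2.23% in ICAR ipsilateral, 1.37% in CAR contralateral and 1.48% in ICAR contralateral.

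**Figure D2:**
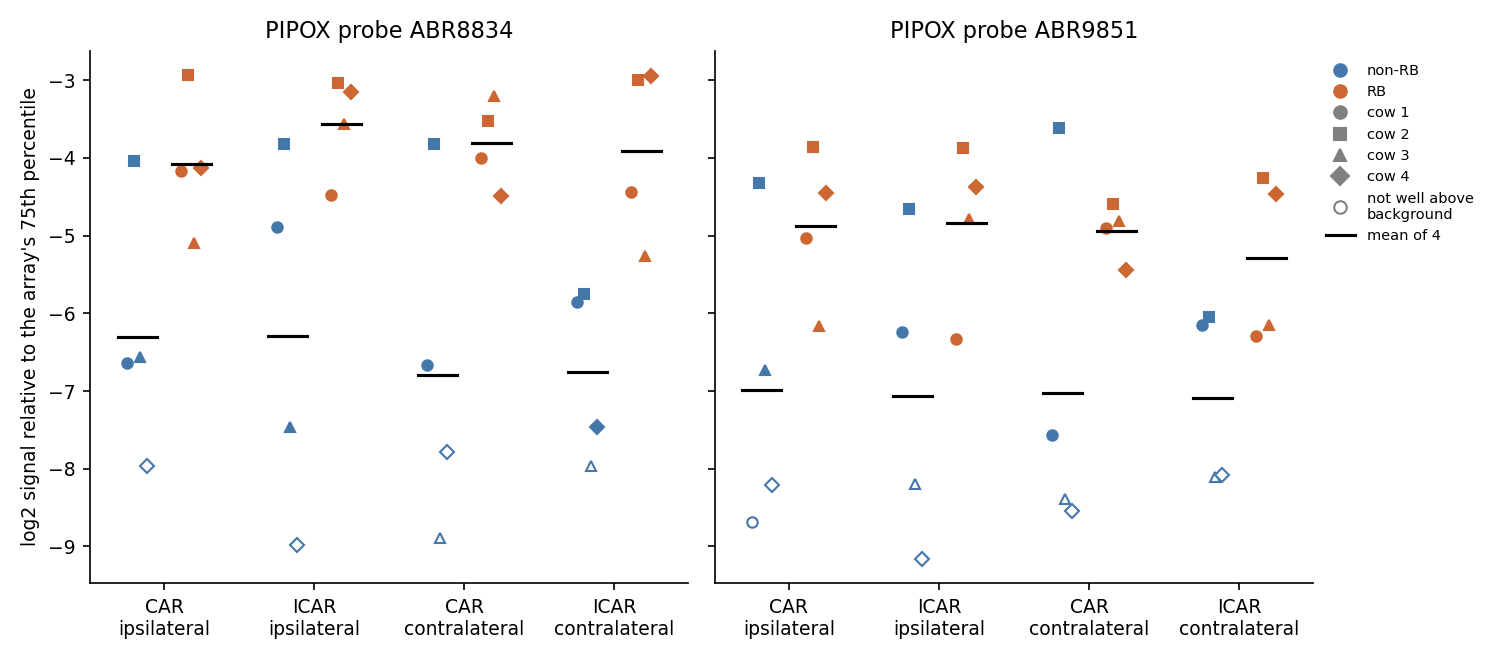
Log2 signal of the 2 PIPOX probes against the array's 75th percentile (vertical axis) in each compartment (horizontal axis); points are arrays, shapes are cows, open points are not well above background and bars are means of 4 arrays. RB means lie above non-RB means in all 4 compartments on both probes, and non-RB cow 2 lies within the RB range in 3 of them on ABR8834 and within or above it in all 4 on ABR9851.

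The second probe, ABR9851, placed non-RB cow 2 within the RB range, or in CAR contralateral above it. In CAR ipsilateral it read -5.03, -3.86, -6.17 and -4.46 in RB cows 1 to 4 and -8.69, -4.32, -6.73 and -8.21 in non-RB cows 1 to 4. In CAR contralateral it read -4.91, -4.59, -4.81 and -5.44 in RB cows and -7.56, -3.62, -8.38 and -8.55 in non-RB cows. In CAR ipsilateral non-RB cow 2 lay within the RB range, and in CAR contralateral it lay above all RB cows.

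In ICAR ipsilateral ABR9851 read -6.32, -3.87, -4.79 and -4.38 in RB cows and -6.24, -4.66, -8.20 and -9.16 in non-RB cows, so that RB cow 1 lay below non-RB cows 1 and 2. In ICAR contralateral it read -6.29, -4.25, -6.15 and -4.46 in RB cows and -6.15, -6.04, -8.10 and -8.08 in non-RB cows. Its RB minus non-RB differences were 2.11 in CAR ipsilateral, 2.23 in ICAR ipsilateral, 2.09 in CAR contralateral and 1.80 in ICAR contralateral. In folds these were 4.32, 4.68, 4.27 and 3.49. On this probe the groups overlapped in all 4 compartments, in ICAR contralateral through RB cows 1 and 3 and non-RB cows 1 and 2. There non-RB cow 1 was on slide 1, as was non-RB cow 2 in CAR contralateral.

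Over the 8 levels of ABR8834, the 4 RB compartments ranked above the rest, from -3.56 in ICAR ipsilateral to -4.08 in CAR ipsilateral. The 4 non-RB compartments followed, from -6.29 in ICAR ipsilateral to -6.79 in CAR contralateral. Gaps between neighbors within RB were 0.24 or less and within non-RB 0.46 or less. All were smaller than the larger SD of the pair, so the order within a group is not resolved. The gap of 2.21 between the lowest RB and the highest non-RB compartment was also smaller than the SD of 2.36 of the latter. ABR9851 also placed the 4 RB compartments above the 4 non-RB ones, with a gap of 1.70 between them.

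PIPOX differed between cows more than between the compartments of a cow. On ABR8834 the means over the 4 arrays of a cow were -4.27, -3.12, -4.28 and -3.68 for RB cows 1 to 4. They were -6.01, -4.36, -7.72 and -8.05 for non-RB cows 1 to 4. The RB cow means thus spanned 1 narrow band, and the non-RB cow means ran from just below that band to far under it. The difference of the cow means was 2.70 on ABR8834 (6.48-fold), where the groups did not overlap, and 2.06 on ABR9851 (4.16-fold), where non-RB cow 2 at -4.66 lay among RB cows between -5.64 and -4.14. Cow means did not overlap between groups for 1.19% of all probes tested.

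Within a group, 73.1% of the spread of ABR8834 over arrays lay between cows and 73.0% of that of ABR9851. The median over 12891 probes was 40.0%, and 97.2% and 97.1% of them had a lower share than the 2 PIPOX probes. For the antioxidant genes the share was 52.9% for GPX1, 49.1% for PRDX1, 48.9% for GPX4, 45.7% for PRDX2, 41.5% for SOD2, 36.9% for TXN, 32.4% for GPX3 and 19.9% for SOD1. These shares are a description, since several cows had all their arrays on 1 slide and the part of the slide was not tested.

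Within the slides that held both groups, PIPOX was not higher in RB on each. On slide 6, which paired RB replicate 4 with non-RB replicate 3, the RB array was higher on ABR8834 by 4.31 in ICAR ipsilateral, 4.4 in CAR contralateral and 5.02 in ICAR contralateral. On slide 8, RB replicate 1 was higher by 2.66 in CAR contralateral than non-RB replicate 1 and by 1.31 in ICAR contralateral than non-RB replicate 2. In ICAR ipsilateral of slide 8, RB replicate 1 at -4.48 was lower than non-RB replicate 2 at -3.82, a difference of -0.66. On ABR9851 RB replicate 1 was lower than non-RB replicate 2 in both ICAR compartments of slide 8, by -1.66 and -0.25. No slide held both groups in CAR ipsilateral, so slide and group cannot be told apart there, but 2 scan sessions (arrays scanned in the same calendar month) did, with RB higher on ABR8834 by 1.27 over 3 against 2 arrays and by 3.84 over 1 against 1.

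A background correction that adds an offset of 50 units to each intensity lowered the PIPOX differences to between 1.02 and 1.59 on ABR8834 and between 0.28 and 0.84 on ABR9851 over the 4 compartments. Leaving out non-RB cow 2 raised the ABR9851 difference in CAR contralateral from 2.09 to 3.23, and with the slide as a block that in ICAR ipsilateral was 1.08 instead of 2.23.

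Between compartments, which the choice of PIPOX did not use, PIPOX had no change that passed the test. CAR minus ICAR was -0.11 ± 0.46 on ABR8834 and 0.11 ± 0.47 on ABR9851 (SE, limma over 32 arrays, adjusted p = 0.956 and 0.958). The 95% intervals ran from -1.05 to 0.82 and from -0.84 to 1.06. This fit has no term for the cow, and it does not exclude a difference of up to about 1 log2 unit in either direction. Taken within each cow, CAR minus ICAR was -0.11 ± 0.77 on ABR8834 and 0.11 ± 1.07 on ABR9851 (SD, n = 8 cows). Of the 8 cows, PIPOX was higher in CAR in 4 and higher in ICAR in 4 on each probe.

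The ipsilateral horn minus the contralateral horn gave 0.26 ± 0.46 and 0.14 ± 0.47 (SE, limma, adjusted p = 1.0 for both), with 95% intervals from -0.67 to 1.19 and from -0.81 to 1.09. This fit too has no term for the cow, although each cow gave both horns. With the cow as a block the SE was smaller, with 0.26 ± 0.26 and 0.14 ± 0.27 (SE, limma, adjusted p = 0.993 for both). On each probe 5 of 8 cows were higher in the ipsilateral horn. Over all probes, 1.35% were called between CAR and ICAR (174 of 12919, adjusted p under 0.05) and 16.2% had an unadjusted p under 0.05. Between horns 0% were called and 1.36% had an unadjusted p under 0.05, and with the cow as a block 1 probe was called, which was none of the genes here. The count of 174 was 1086 with the cow as a block, 909 without RB replicate 3, 710 without non-RB replicate 2, and 0 without any 1 of the other 6 cows or without the arrays of slide 1.

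**Figure D3:**
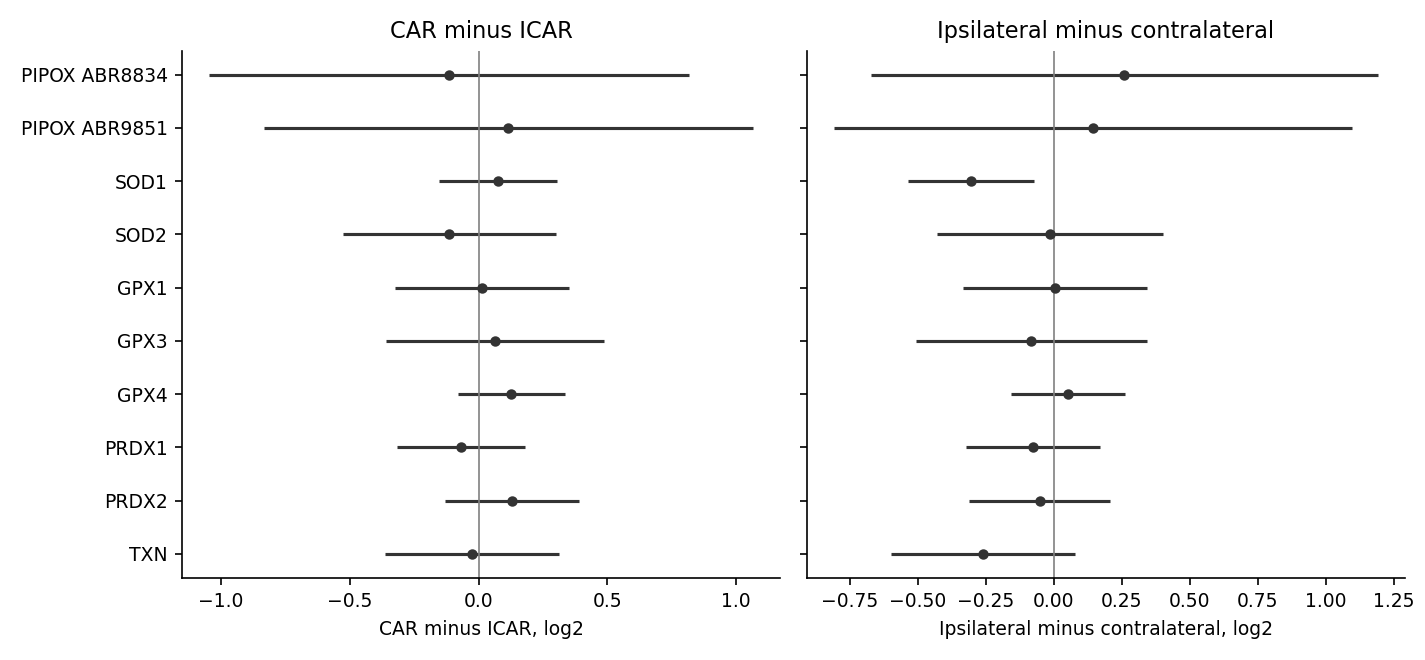
Differences in log2 (horizontal axes) of CAR minus ICAR (left) and of the ipsilateral minus the contralateral horn (right) for the 2 PIPOX probes and 8 antioxidant genes (vertical axis); points are limma estimates over 32 arrays and bars 95% intervals, from fits without a term for the cow. All intervals include 0 except that of SOD1 between horns, from -0.53 to -0.07.

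The 8 antioxidant genes with a probe were listed for their function, though with earlier results of these arrays known, and their RB against non-RB differences were tested over all probes. None passed an adjusted p of 0.05 with limma in any compartment or in the cow means, where 0 of 13080, 0 of 12889, 0 of 13135, 0 of 12980 and 0 of 12919 probes (0% each) passed. At an unadjusted p under 0.05 there were 0 of the 8 genes in CAR ipsilateral (3.41% of all probes), 1 in ICAR ipsilateral (3.69%), 0 in CAR contralateral (1.74%), 1 in ICAR contralateral (1.60%) and 0 in the cow means (2.21%). Over the cow means 4 genes were higher and 4 lower in RB, with a median difference of 0.019 beside 0.010 for all probes. Their cow-mean differences ran from -0.41 for GPX3 to 0.43 for PRDX2.

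**Figure D4:**
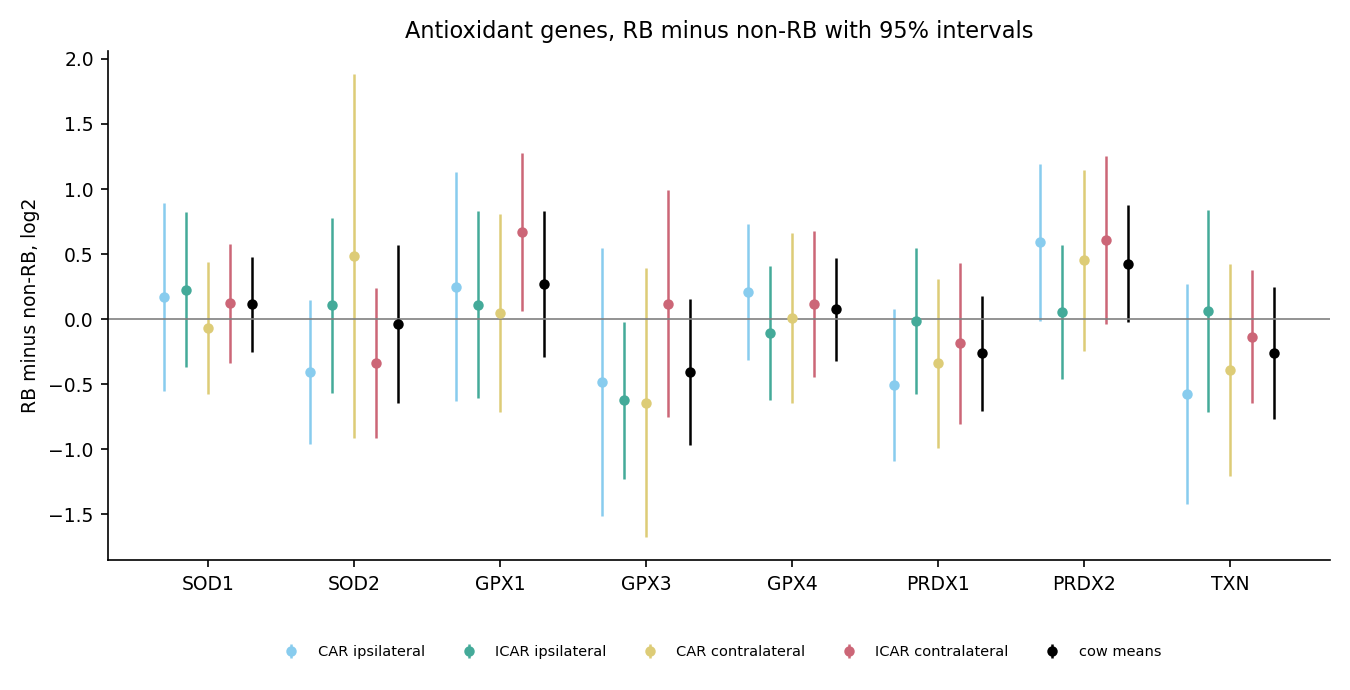
RB minus non-RB difference in log2 (vertical axis) of 8 antioxidant genes (horizontal axis) in each compartment and in cow means (colors); points are limma estimates and bars 95% intervals, over 4 RB and 4 non-RB arrays or cows. Of the 40 intervals, those of GPX3 in ICAR ipsilateral and of GPX1 in ICAR contralateral exclude 0 before adjustment.

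Among the superoxide dismutases, SOD1 was well above background on all 32 arrays and lay between 0.91 and 2.35. Its RB minus non-RB difference in cow means was 0.11 ± 0.16 (SE, limma, adjusted p = 1.0), with a 95% interval from -0.26 to 0.48. The largest compartment difference of SOD1 was 0.23 ± 0.26 in ICAR ipsilateral (SE, limma, adjusted p = 0.869).

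Between horns SOD1 was lower on the ipsilateral side by -0.30 ± 0.11 (SE, limma, unadjusted p = 0.0114, adjusted p = 1.0), with means of 1.66 and 1.96 over 16 arrays each. By cow, the ipsilateral minus contralateral difference was -0.30, -0.29, 0.07 and -0.35 in RB cows 1 to 4 and -0.47, -0.69, 0.07 and -0.47 in non-RB cows 1 to 4. Thus 6 of 8 cows were lower in the ipsilateral horn, and cow 3 of each group was slightly higher. Slides 3, 4 and 5 held ipsilateral arrays alone and slide 1 contralateral arrays alone, so horn and slide are partly mixed. Over the other settings, the slide as a block among them, the difference lay between -0.35 and -0.29. None of the 12919 probes passed the adjusted threshold between horns.

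SOD2, the mitochondrial enzyme, had groups that did not overlap in CAR ipsilateral, as 1.97% of all probes did there. It read 0.52, 0.08, 0.43 and 0.08 in RB cows and 0.54, 0.56, 1.07 and 0.56 in non-RB cows, with cow 1 of each group nearest to the other group. The difference was -0.41 ± 0.25 (SE, limma, adjusted p = 1.0), with a 95% interval from -0.96 to 0.15. The two-sided exact permutation test gave p = 0.0286, the smallest that 4 against 4 arrays allow, in 1 of 40 such tests. No other antioxidant gene had groups that did not overlap in any compartment.

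In the other compartments SOD2 differed by 0.11 in ICAR ipsilateral, 0.49 in CAR contralateral and -0.34 in ICAR contralateral (limma, adjusted p = 0.945, 1.0 and 1.0). The value in CAR contralateral rested on non-RB cow 2, which read -2.03 on the uneven slide 1 while the other 7 arrays lay between 0.03 and 1.07. Without that cow it was -0.20. The cow-mean difference was -0.04 ± 0.27 (SE).

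**Figure D5:**
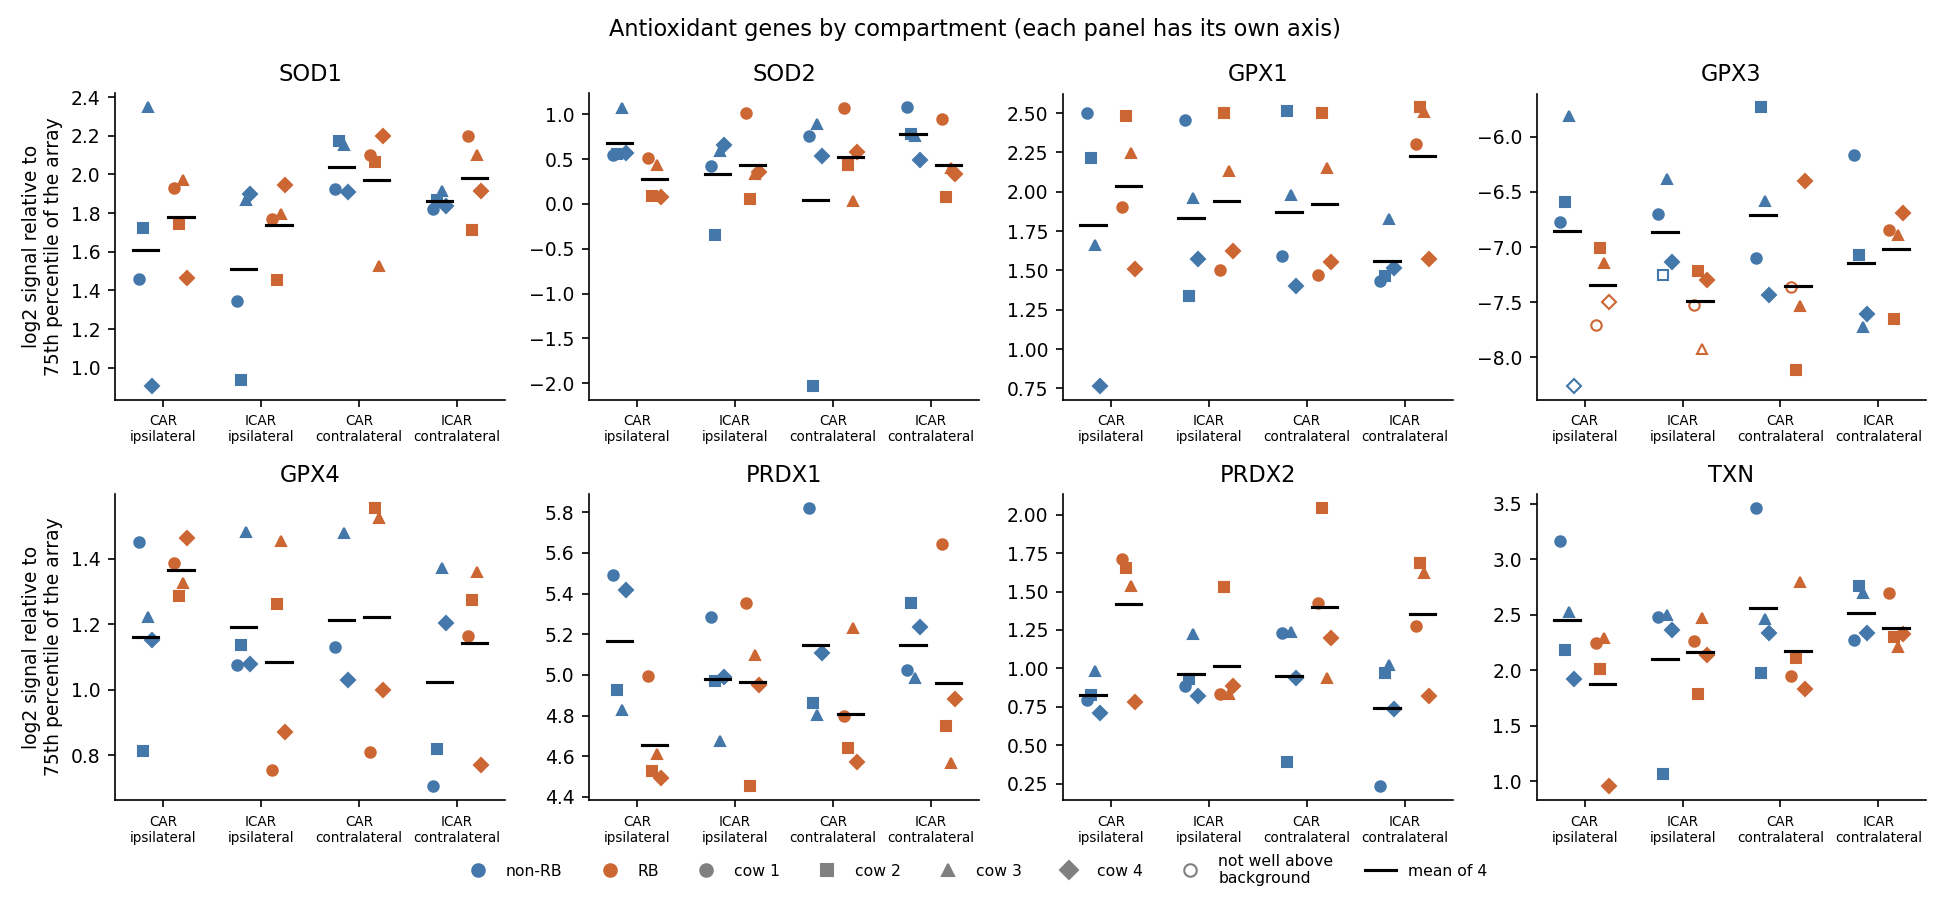
Log2 signal against the array's 75th percentile (vertical axes, 1 scale per panel) of 8 antioxidant genes in each compartment (horizontal axes); points are arrays, shapes cows, open points not well above background and bars means. The groups overlap in all 32 gene and compartment pairs except SOD2 in CAR ipsilateral.

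Of the glutathione peroxidases, GPX1 acts on hydrogen peroxide in the cytosol, GPX3 is the secreted form of plasma, and GPX4 reduces lipid hydroperoxides in membranes. GPX1 in ICAR contralateral read 2.30, 2.54, 2.51 and 1.57 in RB cows and 1.44, 1.46, 1.82 and 1.51 in non-RB cows. Of the RB cows, 3 lay above all non-RB cows, and RB cow 4 lay among them. The difference was 0.67 ± 0.27 or 1.59-fold (SE, limma, unadjusted p = 0.0347, adjusted p = 1.0; two-sided exact permutation p = 0.0571).

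With the slide or the scan session as a block the GPX1 difference in ICAR contralateral was 0.29 and 0.30. In the other 3 compartments GPX1 was higher in RB by 0.25, 0.11 and 0.05, and its cow-mean difference was 0.27 ± 0.25 (SE, limma, adjusted p = 1.0). GPX1 was steady within some cows, with 4 arrays between 2.48 and 2.54 in RB cow 2 and between 1.51 and 1.62 in RB cow 4.

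GPX3 was dim, well above background on 25 of 32 arrays with intensities between 9.87 and 50.6 units. In ICAR ipsilateral it read -7.53, -7.22, -7.93 and -7.30 in RB cows and -6.70, -7.26, -6.38 and -7.13 in non-RB cows. RB cow 2 lay above non-RB cow 2, and the other RB cows lay below all non-RB cows. The difference was -0.62 ± 0.27 (SE, limma, unadjusted p = 0.0436, adjusted p = 0.863; two-sided exact permutation p = 0.0571). Of the 8 arrays, 3 were not well above background, 2 of them RB.

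GPX3 differed by -0.48 in CAR ipsilateral, -0.64 in CAR contralateral and 0.12 in ICAR contralateral, and by -0.41 ± 0.25 in cow means (SE, limma, adjusted p = 1.0). Blocking on the scan session turned the CAR contralateral difference to 0.23, in the other direction. GPX4 lay between 0.71 and 1.56 on 31 arrays, an outlier-flagged spot on the uneven array of non-RB cow 2 being left out. Its differences ran from -0.11 in ICAR ipsilateral to 0.21 in CAR ipsilateral, and the cow-mean difference was 0.07 ± 0.17 (SE, limma, adjusted p = 1.0), with a 95% interval from -0.32 to 0.47.

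The peroxiredoxins PRDX1 and PRDX2 are cytosolic thiol peroxidases, and their differences had opposite signs. PRDX2 in CAR ipsilateral read 1.71, 1.65, 1.54 and 0.78 in RB cows and 0.80, 0.82, 0.98 and 0.71 in non-RB cows. In ICAR contralateral it read 1.27, 1.69, 1.62 and 0.82 in RB cows and 0.24, 0.97, 1.02 and 0.74 in non-RB cows. In both, RB cows 1 to 3 lay above all non-RB cows and RB cow 4 lay among them. The 0.24 of non-RB cow 1 in ICAR contralateral was read on the uneven slide 1. So was the lowest value in CAR contralateral, 0.39 in non-RB cow 2.

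The PRDX2 differences were 0.59 ± 0.27 in CAR ipsilateral (unadjusted p = 0.0541), 0.05 ± 0.23 in ICAR ipsilateral, 0.45 ± 0.31 in CAR contralateral and 0.61 ± 0.28 in ICAR contralateral (SE, limma, unadjusted p = 0.0609). In cow means PRDX2 was 1.31, 1.73, 1.23 and 0.92 in RB cows and 0.79, 0.78, 1.11 and 0.80 in non-RB cows. The difference was 0.43 ± 0.20 (SE, limma, unadjusted p = 0.0598, adjusted p = 1.0; two-sided exact permutation p = 0.0571), with a 95% interval from -0.02 to 0.88. Without the arrays of slide 1 this cow-mean difference was 0.35, and without non-RB cow 1 that in ICAR contralateral was 0.44. With the slide as a block PRDX2 differed by -0.22 in ICAR ipsilateral, 0.08 in CAR contralateral and 0.05 in ICAR contralateral. In CAR ipsilateral no slide held both groups, so the slide entered only as a correlation between its arrays. The value there was 0.55, and it cannot separate slide from group. PRDX2 is abundant in red blood cells, and the summed level of 4 red blood cell marker probes ran from -1.20 to -0.75 on RB arrays and from -1.19 to -0.30 on non-RB arrays, with medians of -0.99 and -0.88. Of these 4 probes, 2 were well above background on all arrays of each group. The part of red blood cells in the PRDX2 difference was not tested.

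PRDX1 had intensities up to 176226 units and was saturated on no array. In CAR ipsilateral it read 5.0, 4.53, 4.61 and 4.49 in RB cows and 5.49, 4.93, 4.83 and 5.42 in non-RB cows. RB cow 1 lay above non-RB cows 2 and 3, and the other RB cows were below all non-RB cows. The difference was -0.51 ± 0.26 (SE, limma, unadjusted p = 0.0809, adjusted p = 1.0; two-sided exact permutation p = 0.0857).

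In the other compartments PRDX1 was lower in RB by 0.02 in ICAR ipsilateral, 0.34 in CAR contralateral and 0.19 in ICAR contralateral as means, none past the test, and its cow-mean difference was -0.26 ± 0.20 (SE, limma, adjusted p = 1.0). TXN, which reduces oxidized peroxiredoxins, differed most in CAR ipsilateral. There it read 2.25, 2.01, 2.29 and 0.96 in RB cows and 3.17, 2.19, 2.53 and 1.93 in non-RB cows, with overlap. The difference was -0.58 ± 0.38 (SE, limma, adjusted p = 1.0), and in cow means it was -0.26 ± 0.23, with a 95% interval from -0.77 to 0.25.

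A probe described in the files as similar to catalase is not among the genes above and was looked at after the other values were seen. Catalase breaks down hydrogen peroxide in peroxisomes. This probe was well above background on all 32 arrays and differed by 0.14 ± 0.18 between RB and non-RB cow means (SE, limma, adjusted p = 1.0).

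Between CAR and ICAR none of the 8 antioxidant genes passed the test. Differences ran from -0.11 ± 0.20 for SOD2 to 0.13 ± 0.13 for PRDX2 (SE, limma), 5 genes higher and 3 lower in CAR, and the smallest adjusted p was 0.617. Between horns they ran from -0.30 for SOD1 to 0.05 ± 0.10 for GPX4. TXN was lower in the ipsilateral horn in 8 of 8 cows, by a mean of -0.26 ± 0.26 (SD, n = 8 cows), and PRDX1 in 7 of 8 cows, by -0.076 ± 0.083. Horn and slide are partly mixed here too. With the cow as a block, the horn difference had an unadjusted p of 0.0830 for TXN, 0.450 for PRDX1 and 0.00898 for SOD1 (limma, adjusted p = 0.993 for each). To test whether the RB difference itself changed between CAR and ICAR, or between horns, the within-cow differences were compared between groups. An unadjusted p under 0.05 was found for 0 of the 8 genes in either, beside 112 and 784 of 12919 probes (limma). After adjustment 0 of the 8 genes and 0% of all probes passed in either (smallest adjusted p 0.999 and 0.789 over all probes). The largest change among the 8 genes was that of TXN, for which the RB difference was lower in CAR than in ICAR by -0.45 ± 0.33 (SE). For PIPOX the same quantities are values only, -0.18 and 0.09 between CAR and ICAR and -0.44 and 0.22 between horns on ABR8834 and ABR9851.

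A wider list of antioxidant genes held 35 symbols, of which some, such as glutathione reductase, had no probe. The 22 probes found covered other peroxiredoxins, thioredoxin reductases and a heme oxygenase, among others. None passed the adjusted threshold in any RB against non-RB comparison (limma). At an unadjusted p under 0.05 there was 1 in ICAR ipsilateral (3.69% of all probes), HMOX1, a heme-degrading enzyme, at -0.54. In ICAR contralateral there was 1 (1.6% of all probes), GSS, which makes glutathione, at -0.55. In cow means 10 were higher in RB cow means, with a median difference of -0.018 beside 0.010 over all probes. The largest in size were GLRX, a glutaredoxin, at 0.38 ± 0.33, SESN2, a sestrin, at -0.24 ± 0.21, and PRDX3, a mitochondrial peroxiredoxin, at 0.23 ± 0.18 (SE, limma, adjusted p = 1.0 for each). Between CAR and ICAR 0 of the 22 passed, beside 1.35% of all probes. Of the 22, 4 had an unadjusted p under 0.05 (limma), beside 16.2% of all probes. The largest were GPX5 at -0.76 ± 0.30, PRDX6 at -0.38 ± 0.14 and HMOX1 at 0.37 ± 0.17 (SE, limma, adjusted p = 0.179, 0.164 and 0.252).

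Genes of the lysine, pipecolate and sarcosine pathways had 6 probes for 12 symbols, of which 5 were tested in cow means, 2 of them higher in RB, and 0 passed. The largest was CRYM, a ketimine reductase of the pipecolate pathway, at -0.85 ± 0.52 (SE, limma, adjusted p = 1.0). ALDH7A1, the next dehydrogenase downstream of PIPOX, was at 0.11 ± 0.21 and GCDH at 0.06 ± 0.23. Between CAR and ICAR the largest were SHMT1 at -0.14, ALDH7A1 at 0.13 and CRYM at 0.086, none past the test. SHMT1, which links serine and glycine to one-carbon metabolism, had an RB difference that was lower in the ipsilateral than in the contralateral horn by -1.03 ± 0.32 (SE, limma, unadjusted p = 0.0093, adjusted p = 0.789). In that comparison 784 of 12919 probes had an unadjusted p under 0.05.

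Genes of the peroxisome, where PIPOX resides, had 13 probes for 32 symbols. Of the 11 tested, 5 were higher in RB cow means and 0 passed, with a median of -0.0058. SCP2, a sterol carrier protein, was at 0.40 ± 0.28, DDO, a D-aspartate oxidase that like PIPOX releases hydrogen peroxide, at -0.34 ± 0.36, and PEX13 at 0.21 ± 0.36 (SE, limma, adjusted p = 1.0 for each). Between CAR and ICAR DDO was at -0.88 ± 0.27 (SE, limma, adjusted p = 0.0760) and PAOX, a polyamine oxidase, at 0.29. None of the 11 passed the test.

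Across the 32 arrays PIPOX (ABR8834) had a Pearson r of -0.40 with SOD2, 0.39 with GPX1, -0.36 with TXN, -0.30 with PRDX1 and 0.26 with PRDX2, and between -0.10 and -0.07 with SOD1, GPX3 and GPX4. With group and compartment means removed, r was -0.63 with SOD2 and between -0.29 and 0.29 with the other 7. On ABR9851 it was -0.66 with SOD2 and between -0.44 and 0.32 with the other 7. Arrays of a cow share that cow and often a slide, so these are descriptions over 8 cows without a p.

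Of 3415 probes with a gene name, those most like PIPOX over the 32 arrays were CNGA1, a cyclic nucleotide-gated channel (r = 0.78), TNNC1, slow troponin C (0.76), MIF, a cytokine (0.73), PI3, an elastase inhibitor (0.72), and TIMP4, a metalloproteinase inhibitor (0.72). Most unlike it were TLR2, a receptor for bacterial lipoproteins (-0.70), CRYGS, a crystallin (-0.67), ACOT8, a peroxisomal thioesterase (-0.67), CFTR, a chloride channel (-0.66), and SLC2A1, a glucose transporter (-0.66). With group and compartment means removed these r values were between 0.57 and 0.79 and between -0.68 and -0.49. None of the 8 antioxidant genes was among the 5 highest or the 5 lowest.

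Marker lists of 10 cell and tissue types had 0 probes past the adjusted threshold between RB and non-RB cows in any compartment or in cow means (limma). The summed level of 2 B and plasma cell probes had a median of 2.14 on RB arrays (range -0.77 to 3.87) and 0.57 on non-RB arrays (range -1.63 to 3.76). Only 1 of these 2 probes was higher in RB cow means. Of the 6 epithelial probes, 1 was higher in RB cow means (median difference -0.27). In ICAR ipsilateral 4 were higher (median 0.24), and in ICAR contralateral 0 (median -0.55). The part of either cell type in the differences above was not tested.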

How the data were processed

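RNA from 32 endometrial samples had been labeled with Cy3 and hybridized to a custom bovine array of 60-base probes. The deposited scanner files give the intensity of each of 15744 spots from Agilent Feature Extraction 9.5, background-subtracted and without normalization between arrays. A second file deposited by the authors holds log2 values. They equal the values used here plus a constant per array between 0.00420 and 0.0140, and served as an alternative. The study's methods name an unpaired t-test.

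Here each intensity was taken to log2 and centred on the 75th percentile over the 15208 probes of the array, and 575 outlier-flagged values were left out. Comparisons were fitted with limma 3.58.1 (R 4.3.3), and p-values were adjusted by Benjamini-Hochberg over every probe that exceeded background on 2 or more of 8 arrays, or 8 or more of 32. Compartments were 4 against 4 arrays, and cow means 4 against 4 cows. CAR against ICAR and the horns used 32 arrays, with cow group and the remaining factor as covariates. Single antioxidant genes had two-sided exact permutation tests. Genes without a file name were named through RefSeq accessions, of which 2514 matched. The limma fits and the exact test were tested on simulated data. Simulated arrays were drawn independently, without a shared cow or slide. They cannot show how the fits over 32 arrays behave where arrays of a cow are correlated.

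The genes and lists were chosen with earlier results of these data known. Named are each gene of the list, the 3 largest of each further list, and the 5 genes most and least like PIPOX. One gene that this rule names is not reported here. Alternatives were no filter, a filter on all arrays, quantile normalization, the authors' own log2 values, normexp with an offset of 50, blocks for slide, scan session or replicate, the cow as a random block, 1 fit over all 8 groups, the methods' t-test, and leaving out each replicate or slide 1.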

Additional observations from a re-analysis of the deposited data

Results flagged for a closer look

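In 79 groups of 4 arrays (10 probes in 8 groups, less 1 group with a spot left out), 5 held an array whose gap to its nearest neighbor took up nearly the whole range of the group. By chance about 1 in 20 groups would. SOD2 read 1.07 in non-RB replicate 3 of CAR ipsilateral, above the other arrays of that group. SOD2 also read -2.03 in non-RB replicate 2 of CAR contralateral, an array of the uneven slide 1. GPX4 read 1.48 in non-RB replicate 3 of ICAR ipsilateral. PRDX2 read 1.53 in RB replicate 2 of ICAR ipsilateral, where the other RB cows lay between 0.83 and 0.88. TXN read 1.06 in non-RB replicate 2 of ICAR ipsilateral, below the other arrays at 2.36 or more. Neither PIPOX probe had such an array.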

How the results depend on the processing

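In all 152 alternatives over 9 comparisons, 0 of the genes tested passed the adjusted threshold with limma or the methods' t-test. At an unadjusted p under 0.05 the methods' test had 2 of the 8 antioxidant genes in CAR ipsilateral (3.53% of all probes), 0 in ICAR ipsilateral (3.55%), 0 in CAR contralateral (1.82%) and 1 in ICAR contralateral (2.02%). It had 2 (13.6% of all probes) when the 16 RB and 16 non-RB arrays were taken as separate samples, which arrays of 1 cow are not. After Benjamini-Hochberg it called 0 of the 8 genes in each. Of all probes, it called 0 in each compartment and 67 of 12919 with the 16 against 16 arrays. The study's results give an adjusted p under 0.05 without naming the method of adjustment. Of 669 further values over 39 differences, 649 kept their direction and their side of the threshold or moved by under 1 SD. The normexp correction moved the PIPOX differences most, on ABR8834 to 1.16 in ICAR contralateral and 1.28 in cow means and on ABR9851 to 0.28 and 0.65. Directions turned in 16 values of 7 differences, among them the lowest (GPX3) and the highest (SOD2) antioxidant difference in CAR contralateral. Without slide 1, CAR minus ICAR was -0.046 for PIPOX on ABR9851 and 0.086 for SOD2. With the slide as a block, RB minus non-RB was -0.0059 for SOD2 in CAR contralateral and -0.22 for PRDX2 in ICAR ipsilateral, and with the scan session 0.23 for GPX3 in CAR contralateral. The cause was not tested. Leaving out each cow gave ranges across 0 for CAR minus ICAR of PIPOX (-0.25 to 0.051 on ABR8834, -0.066 to 0.41 on ABR9851) and SOD2 (-0.17 to 0.0065), and for RB minus non-RB of SOD2 (-0.20 to 0.77 in CAR contralateral, -0.28 to 0.086 in cow means) and PRDX2 (-0.12 to 0.14 in ICAR ipsilateral). The PIPOX cow-mean difference stayed between 2.19 and 3.42 on ABR8834 and between 1.57 and 2.85 on ABR9851.

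Deviations of arrays with the same number in a group had a mean correlation of 0.413 for RB and 0.382 for non-RB, above 0.1 in 22 and 21 of 24 pairs, and not in every pair. Arrays of some cows share a slide, and its part in this was not tested. With the replicate block between groups the number of genes called was 0, and the cow-mean PRDX2 difference kept 0.43 with an adjusted p of 0.963 (limma). With the cow as a replicate block, CAR minus ICAR of PIPOX had an adjusted p of 0.858 and 0.863.

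The low signal of PIPOX in non-RB cows and of GPX3 limits both, since values near the background have large errors on the log2 scale.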
